A study of Mus musculus with 24 samples.

Results

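Tolerance to morphine was examined here as a difference between injection responses in the mouse striatum. All 24 of the 24 arrays of the study entered it, 6 arrays in each of 4 groups. The mice were C57BL/6J animals aged 6 to 10 weeks that had drunk either saccharin or morphine over a long period, and every mouse received a last injection and was killed 4 h later. That injection was saline at 10 ml/kg or morphine at 20 mg/kg, given intraperitoneally. The injection response of each kind of drinker is the log2 intensity after morphine minus that after saline, and the interaction is the response in morphine drinkers minus the response in saccharin drinkers. The arrays lay on 6 beadchips that each held 1 array of each group, so the interaction is the mean of 6 differences of differences taken within a chip. A negative interaction in a gene that rose marks a smaller response in the morphine drinkers. No group went without a sweet or drug drink and an injection, and the sources used here do not give the dose that the animals drank.

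Tolerance is the loss of a drug's effect as its use is repeated. Morphine acts on opioid receptors, which couple to inhibitory G proteins and lower cyclic AMP. On repeated exposure G protein-coupled receptor kinases and arrestins uncouple the receptors, regulators of G protein signalling shorten the signal, and adenylyl cyclases are known to rebound. In rodents an injection of morphine is also known to release corticosterone, which reaches the brain and activates the glucocorticoid receptor, a transcription factor that induces genes such as Fkbp5, Sgk1 and Tsc22d3. The striatum, a forebrain region of medium spiny neurons, is one of the regions where opioid reward is studied.

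Median raw intensity lay between 164 and 543 over the arrays, and correlations between normalized arrays lay between 0.937 and 0.993 over the 13748 genes tested. On chip 2 the morphine drinkers' arrays, replicate 32 (saline) and replicate 31 (morphine), stood apart. Drd1, the D1 dopamine receptor gene that marks a class of medium spiny neurons, was at 9.83 to 10.07 there and at 12.81 to 14.11 elsewhere, and Drd2, which marks the other class, was at 7.08 to 7.69 against 10.77 to 12.33. Ppp1r1b, the gene of the striatal phosphoprotein DARPP-32, was at 10.5 to 10.7 against 13.9 to 15.4. The cortical transcription factor genes Neurod2 and Fezf2 were at 12.48 to 13.08 and 12.3 to 12.5, above the other arrays at 7.94 to 11.45 and 9.40 to 11.99, whereas the cortical genes Tbr1 and Slc17a7 overlapped them. The other 22 arrays thus carried the striatal markers that were measured, and the 2 arrays went against their label. Both are morphine drinkers, 1 from each injection, and values without them are printed beside the results that follow where they turn the sign of a gene's interaction and beside many others. In this bulk tissue fewer cells of a type and less RNA per cell cannot be told apart.

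No gene passed the interaction test. By limma with Benjamini-Hochberg adjustment 0 of 13748 genes (0%) had an adjusted p under 0.05, and 723 (5.26%) had an unadjusted p under 0.05, 347 (2.52%) lower and 376 (2.73%) higher in morphine drinkers. By chance 687.4 genes were expected at that level. Without the 2 chip 2 arrays 0 genes (0%) passed and 936 (6.81%) had an unadjusted p under 0.05, 401 (2.92%) lower and 535 (3.89%) higher. The 95% interval of a gene's interaction had a median half-width of 0.42. That interval is not adjusted for the number of genes, so a difference had to be larger still to pass. Even the lowest interaction of all genes, -1.79, did not. Smaller differences between responses were thus not detectable for most genes with this number of arrays. The median SD of a gene within a group was 0.261 and 0.269 in saccharin drinkers given saline and morphine, and 0.266 and 0.254 in the matching groups of morphine drinkers. The next sections describe sizes and signs of the interaction, none of which passed.

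The 2 responses themselves differed in how many genes passed. By limma the injection raised 41 genes (0.298%) and lowered 10 (0.0727%) in saccharin drinkers, and it raised 9 (0.0655%) and lowered 0 (0%) in morphine drinkers, in which 875 genes had an unadjusted p under 0.05. That is 51 genes (0.371%) against 9, and without the 2 chip 2 arrays 60 (0.436%) against 12 (0.0873%). These counts moved with the processing, from 10 to 71 in saccharin drinkers and from 5 to 63 in morphine drinkers over 44 other settings. Without chip 5 they were 12 and 7. With array weights they were 41 and 63, and the order turned. Passing in one kind of drinker only is no test of a difference, and that test is the interaction. To follow the same genes in both kinds of drinkers, genes were called on the mean of the 2 responses, a contrast that is orthogonal to the interaction in this balanced design. That mean response was higher after morphine in 71 genes (0.516%) and lower in 24 (0.175%), and without the 2 chip 2 arrays in 79 (0.575%) and 19 (0.138%).

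The 71 genes that rose had a median response of 0.53 in saccharin drinkers and 0.44 in morphine drinkers. Their median interaction was -0.12, with a range from -0.63 to 0.41. The response was smaller in morphine drinkers for 53 of the 71 (74.6%), against 52.7% of all 13748 genes when each is turned to the sign of its mean response. Of the 71 genes 6 had an unadjusted interaction p under 0.05 on the lower side and 1 on the higher side (9.86%, against 5.26% of all genes). Without the 2 chip 2 arrays 53 of 71 were again smaller, with a median of -0.10, against 6878 of all 13748 genes. Scaling each array to a common median in place of quantiles moved the median interaction of all genes to 0.10 and that of the 71 genes to 0.02. Only 29 of the 71 then lay below 0, but 53 of 71 lay below the median of all genes, and their own median was -0.08 relative to it. The genes that fell had a median response of -0.46 in saccharin drinkers and -0.40 in morphine drinkers, and 13 of 24 were smaller in morphine drinkers (54.2%), or 16 of 24 without the chip 2 arrays. Of these 24 genes 5 (20.8%, against 5.26% of all genes) had an unadjusted interaction p under 0.05, each on the side of a smaller response in morphine drinkers. No test compared the genes that fell with those that rose.

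**Figure D1:**
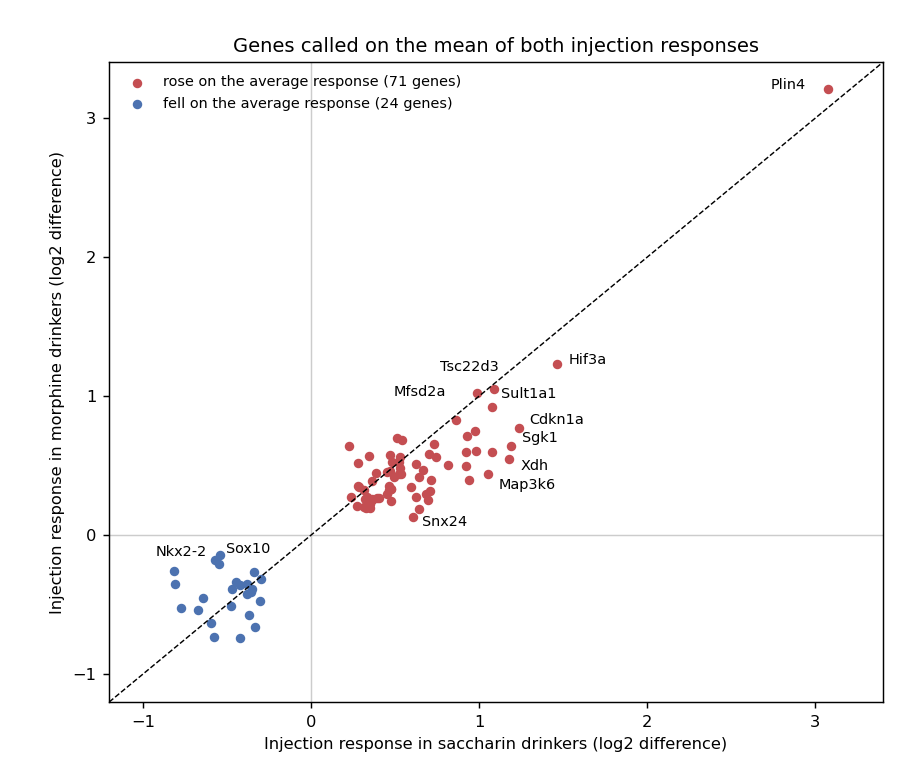
Injection response in saccharin drinkers (x axis, log2 difference) against that in morphine drinkers (y axis, log2 difference), 1 point per gene called on the mean of both responses, with a dashed line where they are equal. Of the 71 genes that rose, 53 lie below the line, and Plin4, Tsc22d3 and Mfsd2a lie on it or close to it.

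The difference was not the same in size over the chips. The median interaction of the 71 genes was -0.02 on chip 1, -0.35 on chip 2, -0.04 on chip 3, -0.19 on chip 4, 0.04 on chip 5 and -0.08 on chip 6. It was below 0 on 5 of 6 chips, and chips 2 and 4 gave the lowest values, with 56 of 71 genes smaller in morphine drinkers on each. Chip 5 had 32 of 71 smaller. The median of all 13748 genes on the same chips lay between -0.08 and 0.07.

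The genes of largest response had the largest median difference. The 24 genes with the largest mean response, from 0.57 to 3.14, had a median of 0.96 in saccharin drinkers and 0.65 in morphine drinkers, with a median interaction of -0.22 and 20 genes smaller in morphine drinkers. The middle 24 genes had medians of 0.53 and 0.44 and an interaction of -0.09 with 16 smaller, and the 23 genes of smallest mean response had 0.35 and 0.27 and an interaction of -0.11 with 17 smaller. For 83 of the 95 genes called on the mean response the 95% interval of the interaction held 0. For 33 of the 95 the interval held a loss of the whole response seen in saccharin drinkers. Of these, 22 held 0 as well, so that their intervals took in both an equal response and none at all, and 11 did not hold 0.

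The gap between drinkers lay mainly in the arrays after morphine. Over the 71 genes, morphine drinkers differed from saccharin drinkers by a median of -0.05 under saline, with 46 genes lower, and by -0.16 after the morphine injection, with 65 of 71 lower. The same medians over all genes were 0.00 and 0.01. These differences rest on the same arrays as the interaction and add no second count of it.

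Genes known to be induced by glucocorticoids made up the largest group of the genes that rose among the 33 lists. The list held 52 genes, 49 of them tested, and it includes genes that were already known to rise in these samples in both kinds of drinkers, such as Plin4, Hif3a, Sult1a1, Mfsd2a, Mertk, Adipor2 and Gjb6, so its count of risers is not independent of the data. Of the 49 genes 24 rose and 1 fell on the mean response (0.516% and 0.175% of all genes), 22 rose in saccharin drinkers (0.298% of all genes) and 9 rose in morphine drinkers (0.0655% of all genes). The median response was 0.56 in saccharin drinkers and 0.38 in morphine drinkers, with a median interaction of -0.18 (-0.15 without the chip 2 arrays), against 0.00 for all genes. The response was lower in morphine drinkers for 37 of 49 genes, against 49.5% of all genes. The list median was below 0 on 6 of 6 chips, from -0.33 on chip 2 and -0.28 on chip 4 to -0.04 on chip 1. By unadjusted p 5 members were lower and 1 higher, 12.2% of the list against 5.26% of all genes. The mean log2 intensity over the 49 genes ran from 10.21 to 10.31 in saccharin drinkers given saline and from 10.75 to 11.03 after morphine. The morphine drinkers' groups ran from 10.08 to 10.32 and from 10.45 to 10.81. The saline and morphine arrays did not overlap in either kind of drinker, and the lowest arrays after morphine were those of morphine drinkers.

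The promoters of 3 genes that rose hold the letters GNACA, any 3 bases and TGTNC, a relaxed form of the palindrome bound by the glucocorticoid receptor, chosen for the search after the responses were seen. They are printed because Map3k6 and Sgk1 are among the risers with the lowest interactions. Of the 71 genes 60 had an entry in the RefSeq promoter table for GRCm38.p6, and 3 of them (5%) held the motif in the 300 bases searched, against 145 of 27025 genes in the table (0.537%). The motif reads the same on both strands. The stricter form AGAACA, any 3 bases and TGTTCT was found in 3 genes of the table (0.0111%), and Sgk1 is one of them. The 250 bases before each start site follow, all on the plus strand, from chr4:133240568-133240817 for Map3k6, chr10:21993640-21993889 for Sgk1 and chr3:96557707-96557956 for Txnip, with the motif in capitals. It begins 181, 188 and 172 bases before the start site. A match is a description of these letters and shows no binding.
Map3k6: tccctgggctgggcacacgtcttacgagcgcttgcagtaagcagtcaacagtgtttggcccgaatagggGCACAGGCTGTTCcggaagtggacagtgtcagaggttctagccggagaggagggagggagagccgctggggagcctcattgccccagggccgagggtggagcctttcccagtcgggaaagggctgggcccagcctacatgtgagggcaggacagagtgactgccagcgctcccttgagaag
Sgk1: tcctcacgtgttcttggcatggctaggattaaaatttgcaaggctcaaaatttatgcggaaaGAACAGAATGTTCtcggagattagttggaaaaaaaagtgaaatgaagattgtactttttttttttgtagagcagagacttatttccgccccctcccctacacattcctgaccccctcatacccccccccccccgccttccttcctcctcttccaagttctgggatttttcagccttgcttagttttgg
Txnip: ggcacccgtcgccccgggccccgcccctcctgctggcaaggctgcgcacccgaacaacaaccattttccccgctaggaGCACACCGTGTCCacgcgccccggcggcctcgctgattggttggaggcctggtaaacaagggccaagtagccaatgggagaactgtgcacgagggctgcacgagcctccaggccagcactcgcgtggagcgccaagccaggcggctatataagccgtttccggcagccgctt

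Several of the glucocorticoid-induced genes with large responses had values close to each other in the 2 kinds of drinkers. Plin4, a lipid droplet coat protein gene, ran from 7.69 to 8.80 (median 8.49) in saccharin drinkers given saline and from 10.81 to 11.80 (median 11.40) after morphine. It ran in morphine drinkers from 7.07 to 8.54 (median 8.09) and from 10.83 to 11.74 (median 11.05). The morphine arrays lay wholly above the saline arrays in both. Plin4 rose by 3.08 in saccharin drinkers and 3.21 in morphine drinkers (adjusted p = 1.3e-06 and 6.4e-07 by limma), with an interaction of 0.13 (95% interval -0.55 to 0.81). Tsc22d3, which encodes the anti-inflammatory protein GILZ, rose by 1.09 and 1.05, and its interaction of -0.04 had the narrow interval of -0.30 to 0.23, though it was 0.13 under scaling to a common median. Mfsd2a, a lipid transporter gene of the blood-brain barrier, rose by 0.99 and 1.02, with an interaction of 0.04 (interval -0.35 to 0.42) that was -0.10 without the chip 2 arrays. Hif3a, a member of the hypoxia-inducible factor family, was less alike and rose by 1.47 and 1.23, with an interaction of -0.24 (interval -0.84 to 0.37). The sulfotransferase gene Sult1a1 rose by 1.07 and 0.92. Its interaction of -0.15 (interval -0.50 to 0.19) was below 0 on 6 of 6 chips.

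Fkbp5, the gene of a chaperone that restrains the glucocorticoid receptor, combined a clear response in both kinds of drinkers with a lower value in morphine drinkers on every chip. It ran from 9.62 to 10.26 (median 9.91) and from 10.67 to 11.26 (median 10.78) in saccharin drinkers given saline and morphine. In morphine drinkers it ran from 9.81 to 10.07 (median 9.90) and from 10.39 to 11.01 (median 10.61). The saline arrays of both kinds of drinkers overlapped, and the injection separated them from the morphine arrays in each. Fkbp5 rose by 0.97 and 0.75, and the interaction was -0.22 (interval -0.48 to 0.03), or -0.26 without the chip 2 arrays. It was below 0 on 6 of 6 chips, as for 262 of all genes (1.91%).

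A second set of glucocorticoid-induced genes rose in saccharin drinkers and missed the threshold in morphine drinkers. Grouping genes by these 2 responses favours an interaction below 0. The sign of the interaction in this set, here and in the next paragraphs, is therefore no test of a difference. Sgk1, a kinase that promotes sodium transport and neuronal excitability, ran from 13.28 to 14.17 (median 13.64) and from 14.65 to 15.10 (median 14.93) in saccharin drinkers. The morphine drinkers' groups ran from 13.04 to 13.74 (median 13.32) and from 13.34 to 14.74 (median 13.81). After morphine the morphine drinkers were spread, some near their saline level and some near the saccharin drinkers. The response was 1.19 (adjusted p = 0.0088 by limma) and 0.64 (0.40), with an interaction of -0.55 (interval -1.13 to 0.03) that was below 0 on 3 of 6 chips. Without the chip 2 arrays it was -0.48.

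Xdh, which encodes xanthine dehydrogenase of purine breakdown, ran from 8.02 to 8.38 (median 8.17) and from 9.09 to 9.95 (median 9.26) in saccharin drinkers. It ran in morphine drinkers from 7.87 to 9.41 (median 8.61) and from 8.40 to 9.64 (median 9.24). The groups separated in the saccharin drinkers and overlapped in the morphine drinkers, whose saline arrays reached higher. The interaction of -0.63 (interval -1.21 to -0.06, adjusted p = 0.935 by limma) was the lowest of the 71 genes, and it was -0.48 without the chip 2 arrays. Map3k6, a stress-activated kinase gene, rose by 1.05 in saccharin drinkers with no overlap and differed by 0.44 in morphine drinkers, and its interaction of -0.62 was below 0 on 5 of 6 chips. A second, dimmer probe of Map3k6 gave -0.19.

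Angptl4, a lipoprotein lipase inhibitor gene, had responses of 1.08 and 0.60 and an interaction of -0.48 (interval -0.98 to 0.02, -0.36 without the chip 2 arrays). Cdkn1a, the gene of the cell cycle inhibitor p21, had 1.24 and 0.77 with an interaction of -0.46, and 2 further probes gave -0.43 and -0.36. Ddit4, an inhibitor of mTOR signalling, had 0.92 and 0.50 with -0.42, and Pnpla2, the gene of adipose triglyceride lipase, 0.98 and 0.61 with -0.37. All 4 rose in saccharin drinkers, none passed in morphine drinkers, and the interval of each interaction held 0.

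Depp1, a gene induced by FOXO factors, had the lowest interaction of the glucocorticoid list. It ran from 7.61 to 8.54 (median 7.96) and from 8.35 to 9.12 (median 8.92) in saccharin drinkers. In morphine drinkers it ran from 7.65 to 8.05 (median 7.86) and from 7.40 to 8.51 (median 8.09). The morphine arrays of the morphine drinkers straddled their saline arrays. Depp1 rose by 0.86 in saccharin drinkers and differed by 0.11 in morphine drinkers, with an interaction of -0.74 (interval -1.23 to -0.25, -0.67 without the chip 2 arrays) that was below 0 on 6 of 6 chips. Crispld2, a gene with a role in dampening inflammation, had -0.65 on 6 of 6 chips, and its saccharin response of 0.56 did not pass. Nfkbia, the inhibitor of NF-kappa-B, averaged 9.85 after saline and 10.84 after morphine in saccharin drinkers (log2 intensity) and 9.76 and 10.02 in morphine drinkers, neither difference passed, and its interaction was -0.73, while a dimmer probe gave -0.10.

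**Figure D2:**
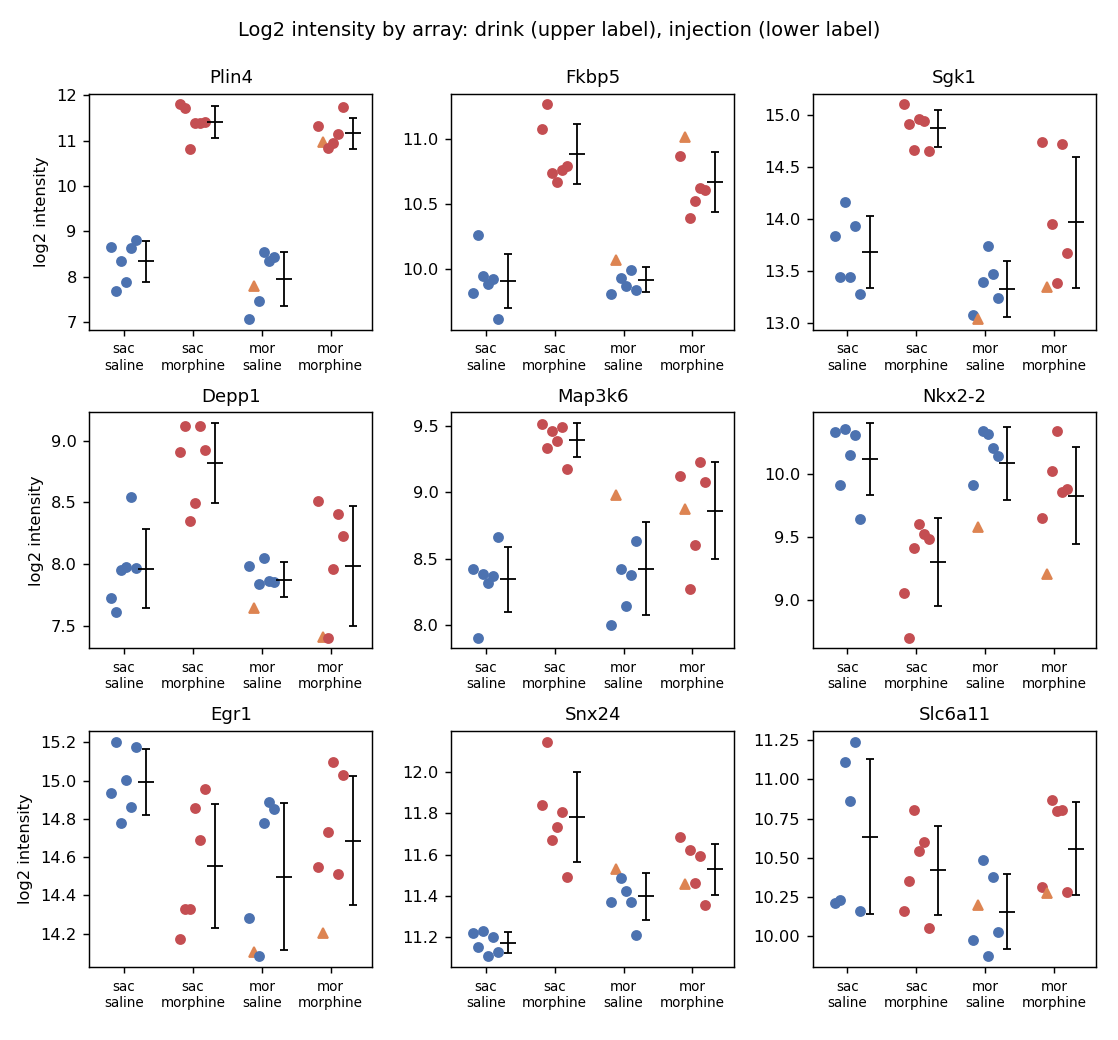
Log2 intensity (y axis) on each array for 9 genes, by drink and injection (x axis), with saline in blue, morphine in red and the 2 chip 2 arrays as orange triangles, and bars for mean and SD of 6 arrays. Plin4 and Fkbp5 separate by injection in both kinds of drinkers, whereas Sgk1, Depp1 and Map3k6 separate or nearly separate in saccharin drinkers and overlap in morphine drinkers.

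Among risers outside the glucocorticoid list, 34 of 47 had a smaller response in morphine drinkers, with medians of 0.47 and 0.35 and a median interaction of -0.11. In the list it was 19 of 24, with medians of 0.96 and 0.59. Snx24, a sorting nexin gene, had the smallest interaction p of all genes that rose. It ran from 11.11 to 11.23 (median 11.18) and from 11.49 to 12.15 (median 11.77) in saccharin drinkers. The morphine drinkers' groups ran from 11.21 to 11.53 (median 11.40) and from 11.35 to 11.69 (median 11.53). The saline arrays of morphine drinkers were higher than those of saccharin drinkers and the morphine arrays lower, so that the morphine drinkers' groups overlapped. Snx24 rose by 0.61 in saccharin drinkers and differed by 0.13 in morphine drinkers, with an interaction of -0.48 (interval -0.71 to -0.25, adjusted p = 0.935 by limma) below 0 on 6 of 6 chips.

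Camk1g, a calcium/calmodulin-dependent kinase gene, went with the genes of like response. It rose by 0.86 in saccharin drinkers and differed by 0.83 in morphine drinkers (adjusted p = 0.088 by limma), and its interaction of -0.04 became 0.15 without the chip 2 arrays. Pglyrp1, a peptidoglycan recognition protein gene, had 0.93 and 0.71, and the desmosomal gene Pkp2 had 0.92 and 0.60. Further probes of Pkp2 gave interactions of -0.13 and 0.11 against -0.32, so they disagreed in sign.

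Some genes of the oligodendrocyte lineage fell after morphine, and 2 of these had a smaller response in morphine drinkers. On the mean response 3 of 35 tested members of the oligodendrocyte and myelin list fell (0.175% of all genes did) and 0 rose. Nkx2-2, a transcription factor gene of oligodendrocyte precursors, ran from 9.64 to 10.35 (median 10.23) and from 8.70 to 9.60 (median 9.45) in saccharin drinkers. It ran in morphine drinkers from 9.58 to 10.34 (median 10.17) and from 9.21 to 10.34 (median 9.87). The saccharin drinkers' groups did not overlap and the morphine drinkers' groups did. Nkx2-2 fell by 0.82 in saccharin drinkers and differed by -0.26 in morphine drinkers, with an interaction of 0.56 (interval 0.20 to 0.92, 0.59 without the chip 2 arrays). A dimmer probe of it gave 0.08. Sox10, which directs the same lineage, fell by 0.55 in saccharin drinkers and differed by -0.21 in morphine drinkers, with an interaction of 0.34 that was above 0 on 6 of 6 chips. Opalin, a myelin protein gene and the third of the list to fall, had -0.58 and -0.73, an interaction of -0.15. The list as a whole had a median interaction of 0.06 (0.04 without the chip 2 arrays).

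Further genes that fell in saccharin drinkers were named after their values were seen. Choosing genes by that fall favours an interaction above 0, so its sign here is no test of a difference. Elovl6, a fatty acid elongase gene, fell by 0.47 there and differed by -0.07 in morphine drinkers, an interaction of 0.40 on 6 of 6 chips. Cyp2e1, a cytochrome P450 gene, fell by 0.87 and differed by -0.16, an interaction of 0.71 on 6 of 6 chips. Gkn3 fell by 0.59 in saccharin drinkers and had an interaction of the other sign, -0.04. An interaction above 0 on 6 of 6 chips was found in 274 of all genes (1.99%), which were not chosen by a fall. Elovl6 and Cyp2e1 were not called on the mean response. The lists to which Elovl6 and Cyp2e1 belong had medians near those of all genes, 0.03 for fatty acid and sterol synthesis and 0.06 for drug metabolism.

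Over the 33 lists, blood cell and glucocorticoid-induced genes had the lowest medians and interferon and immediate-early genes the highest. The medians ran from -0.44 to 0.14, against 0.00 for all genes, and spread widely over the chips for the lists of cell types. No list holds a gene whose interaction passed. Of all genes 49.5% had an interaction below 0, or 48.2% without the chip 2 arrays, which is the background for counts within a list. Lists share genes and arrays, and the cell type lists move with the tissue that was taken, so a median is a description of these arrays. Under scaling to a common median the glucocorticoid list had -0.04, or -0.14 relative to all genes. The medians of the clock, cortical, other brain region, microglia, FOXO, hypoxia, growth arrest and synaptic adhesion lists, below 0 with quantiles, were above 0 under that scaling.

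**Figure D3:**
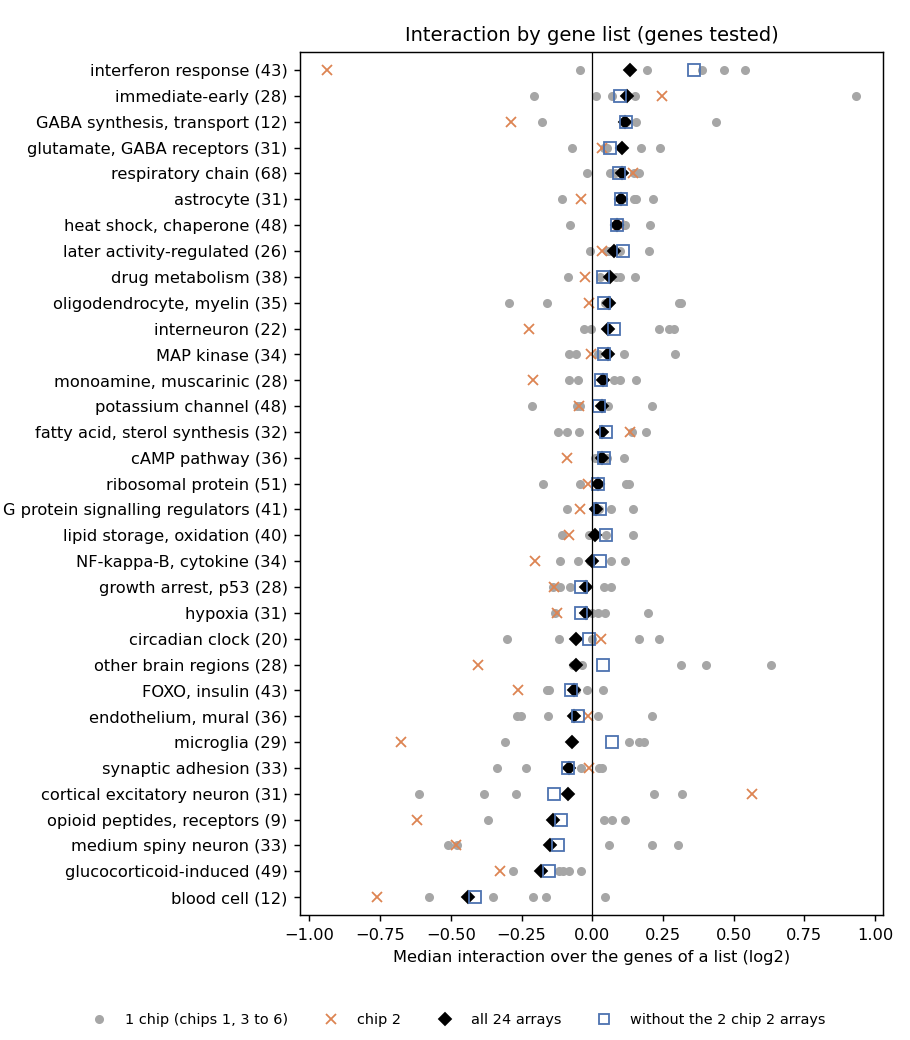
Median interaction (x axis, log2) over the tested genes of each of 33 lists (y axis, number of genes in brackets), for all 24 arrays, without the 2 chip 2 arrays, and on each chip. The glucocorticoid list lies below 0 on all 6 chips, whereas the medium spiny neuron, cortical, microglia and interferon lists spread to both sides. Of these 4, the microglia and interferon lists have their lowest value on chip 2, and the medium spiny neuron list is as low on chips 1 and 6 as on chip 2.

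Immediate-early genes, which neurons switch on within minutes of activity, had a median response of -0.15 in saccharin drinkers and 0.01 in morphine drinkers. No member passed in either. The median interaction of the 28 genes was 0.12 (0.10 without the chip 2 arrays), with a range from -0.44 to 1.23. It was 0.93 on chip 1 and between -0.21 and 0.25 on the other chips, so chip 1 carried much of it. By unadjusted p 5 members were higher and 1 lower (21.4%, against 5.26% of all genes). With the 2 chip 2 arrays included, the gap lay under saline and not after morphine. Under saline morphine drinkers differed from saccharin drinkers by a median of -0.18, with 20 of 28 genes lower (6750 of all 13748). After morphine the median was 0.00.

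Egr1, a zinc finger transcription factor gene of this class, ran from 14.78 to 15.20 (median 14.97) and from 14.17 to 14.96 (median 14.51) in saccharin drinkers. In morphine drinkers it ran from 14.08 to 14.89 (median 14.53) and from 14.20 to 15.10 (median 14.64). The saccharin drinkers given saline were the highest group, and all groups overlapped. Its interaction was 0.63 (interval 0.24 to 1.01, 0.64 without the chip 2 arrays) and was above 0 on 5 of 6 chips. Fos ran from 10.41 to 11.40 (median 11.21) and from 9.69 to 10.59 (median 10.37) in saccharin drinkers, and from 8.73 to 11.56 (median 10.58) and 10.13 to 10.73 (median 10.34) in morphine drinkers. Its interaction of 0.89 had the wide interval of -0.03 to 1.82. Atf3, a stress-induced factor gene, had 1.09 on 6 of 6 chips, though its groups had medians from 6.98 to 7.76, near the limit of 7.05 below which genes were not tested. Dusp6, a phosphatase gene that ends MAP kinase signals, had 0.48, and its further probes gave 0.39 and 0.83. Arc, a gene of synaptic plasticity, had 0.60 (0.44 without the chip 2 arrays), Junb 0.34 and Npas4 0.10 (0.26 without the chip 2 arrays), each with an interval that held 0, and a dimmer probe of Npas4 gave 0.99. The 26 later activity-regulated genes had a median of 0.08, and the MAP kinase list of 34 genes 0.05.

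Per2, a clock gene that glucocorticoids induce, had the highest interaction of the 71 risers and was 1 of 18 above 0. It ran from 11.89 to 12.30 (median 12.07) and from 12.03 to 12.46 (median 12.32) in saccharin drinkers. The morphine drinkers' groups ran from 11.04 to 11.78 (median 11.65) and from 11.79 to 12.60 (median 12.14). The groups overlapped in saccharin drinkers and were just separate in morphine drinkers, whose saline level was the lowest of the 4 groups. Per2 rose on the mean response (0.43, adjusted p = 0.033 by limma), its responses were 0.22 and 0.64, neither of which passed alone, and the interaction was 0.41 (0.52 without the chip 2 arrays). A second bright probe gave 0.34 and a dim probe -0.37. Per1 had 0.16, and the 20 clock genes had a median of -0.06 (-0.01 without the chip 2 arrays).

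Genes of opioid peptides and receptors had interactions whose intervals held 0. Oprm1, the gene of the mu receptor on which morphine acts, had a mean log2 intensity of 6.40, below the limit for testing, and Oprd1 was not analysed here. Oprk1, the kappa receptor gene, had an interaction of -0.51 (interval -1.44 to 0.42). Replicate 32, a saline array of a morphine drinker, was low at 6.53, and the interaction was -0.68 without the chip 2 arrays. The nociceptin receptor gene Oprl1 had 0.03 (interval -0.30 to 0.35), with responses of -0.02 and 0.01. It was -0.025 without the chip 2 arrays, and 2 dimmer probes gave 0.28 and 0.26. Penk, the enkephalin precursor gene, had -0.14 (interval -1.51 to 1.23), and Pdyn, the dynorphin precursor gene, -0.20 (interval -1.29 to 0.90). Without the chip 2 arrays these were -0.08 and -0.11. The 9 tested genes of opioid peptides, receptors and processing had a median of -0.14 with 6 below 0, and no unadjusted p in the list was under 0.05.

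Genes that end or carry the receptor's signal lay on both sides of 0. The 41 regulators of G protein signalling, G protein subunits, receptor kinases and arrestins had a median of 0.01, with 18 below 0 and 1 with an unadjusted p under 0.05 (2.44%, against 5.26% of all genes). That gene was Rgs1, with -1.32 (interval -2.24 to -0.40) and group medians from 7.30 to 8.13. Rgs9, the striatal regulator of opioid and dopamine receptors, had -0.24 (interval -1.92 to 1.44) with the chip 2 arrays at 10.34 and 10.44 and the others at 14.35 to 15.18, and -0.28 without the pair. The arrestin genes Arrb1 and Arrb2 had -0.14 and 0.30.

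The 36 cyclic AMP pathway genes had a median of 0.03, with 17 below 0, 3 higher and 1 lower by unadjusted p (11.1%, against 5.26% of all genes). Adcy6, an adenylyl cyclase gene, ran from 9.35 to 10.28 (median 9.71) and from 9.13 to 9.82 (median 9.50) in saccharin drinkers, and from 9.16 to 9.85 (median 9.52) and 9.53 to 10.00 (median 9.77) in morphine drinkers. The groups overlapped in both. Its interaction was 0.52 (interval 0.10 to 0.94) and above 0 on 6 of 6 chips, and a dimmer probe gave 0.03. Pde4d, a cyclic AMP phosphodiesterase gene, had 0.66, with a dimmer probe at -0.12. Crtc1, a coactivator of CREB, had -0.36 on 6 of 6 chips, with a dimmer probe at 0.11. Adcy8 had 0.43 (interval -0.37 to 1.23), and Adcy5, the main striatal cyclase gene, had a mean of 7.05, just below the limit for testing.

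Medium spiny neuron genes had a median interaction of -0.15, with 26 of 33 below 0 (49.5% of all genes). Their median response was 0.13 in saccharin drinkers and -0.03 in morphine drinkers, and no member passed in either. The chip medians were -0.51, -0.48, 0.30, 0.06, 0.21 and -0.48, so the sign was not the same over chips. Without the chip 2 arrays the median was -0.12 with 26 below 0. Drd1 had -0.19 (interval -1.74 to 1.36) and Drd2 -0.34 (interval -2.12 to 1.43), and these became -0.15 and -0.25. Drd4, a D4 receptor gene, had an interval of -1.67 to -0.33, with group medians from 7.19 to 7.77. The list of dopamine, serotonin and noradrenaline receptor and metabolism genes, which holds Drd4 and also acetylcholine and cannabinoid receptor genes, had over its 28 tested members a median of 0.04.

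Markers of cortex, interneurons and other regions had medians nearer to 0. Cortical excitatory neuron genes had a median of -0.08 (-0.13 without the chip 2 arrays) and interneuron genes 0.06, and markers of other brain regions had -0.06 (0.04 without these arrays). The mean log2 intensity over the 31 cortical genes ran from 10.12 to 11.26 in saccharin drinkers given saline, from 10.50 to 11.22 after morphine, and from 10.62 to 11.27 over the morphine drinkers. Without the chip 2 arrays the medium spiny neuron median of -0.12 was nearer to 0 than the cortical one. The cortical chip medians were 0.22, 0.57, -0.38, -0.27, -0.61 and 0.32. On each chip the medium spiny neuron median had the other sign. The part of cortical content in the results of neuronal genes was not tested.

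Respiratory chain genes, which encode subunits of mitochondrial energy production, had small values of one direction. The median over 68 genes was -0.05 in saccharin drinkers and 0.06 in morphine drinkers. The median interaction was 0.11, with 58 of 68 above 0 and 10 below 0 (49.5% of all genes were below 0). Without the chip 2 arrays it was 0.09, with 16 below 0 (48.2% of all genes). The chip medians were 0.15, 0.14, 0.16, 0.08, 0.06 and -0.02. By unadjusted p 3 members were higher (4.41%), below the background of 5.26%. Ndufa8, a complex I subunit gene, had 0.27 (interval 0.07 to 0.47) on 6 of 6 chips, with a second probe at 0.14. Cox5a of complex IV had 0.19 and Atp5j of the ATP synthase 0.23, with a second probe of Atp5j at 0.00. The 48 heat shock and chaperone genes had a median of 0.09 with 13 below 0, and the 51 ribosomal protein genes 0.02 with 23 below 0.

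Interferon response genes depended most on the chip 2 arrays. Their median interaction was 0.14 over 43 genes with all arrays and 0.36 without these, with 12 and 6 genes below 0. The chip medians were 0.39, -0.94, 0.54, 0.19, 0.47 and -0.04. On replicate 32 the mean over the list was 9.96, against 8.59 to 9.60 on the arrays other than the chip 2 pair. By unadjusted p 1 gene was higher and 2 were lower with all arrays (2.73% and 2.52% of all genes). Without the pair 9 were higher and 1 was lower (3.89% and 2.92% of all genes). Irgm1, an immunity-related GTPase gene, had 0.27 on 6 of 6 chips, and a dimmer probe gave 0.00. Oasl1 and Isg20 had -0.96 and -0.71, with group medians from 6.87 to 7.69.

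Blood cell genes had the lowest median, -0.44 over 12 genes, with a median response of 0.16 in saccharin drinkers and -0.32 in morphine drinkers. It was below 0 on 5 of 6 chips and stood at -0.42 without the chip 2 arrays. Hba-a1, a haemoglobin gene, ran from 13.48 to 14.44 (median 13.85) and from 13.49 to 14.68 (median 14.39) in saccharin drinkers, and from 13.40 to 14.86 (median 14.10) and 12.21 to 14.63 (median 14.03) in morphine drinkers. All groups overlapped. Its interaction was -0.67, that of Hbb-bt -0.61 with further probes from -0.64 to -0.40, and that of S100a8, a neutrophil gene, -0.62. Probes of the near-identical haemoglobin genes can share signal. How far blood content moved with other results was not tested.

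Glial and vascular lists lay near 0. Astrocyte genes had a median of 0.10, and Slc6a11, a GABA transporter gene of astrocytes, had 0.62 (interval 0.29 to 0.95, 0.68 without the chip 2 arrays), higher on 5 of 6 chips. It ran from 10.16 to 11.24 (median 10.55) and from 10.05 to 10.80 (median 10.45) in saccharin drinkers, and from 9.87 to 10.49 (median 10.11) and 10.28 to 10.87 (median 10.56) in morphine drinkers. The lowest group was that of morphine drinkers given saline, and all groups overlapped. Gfap, the astrocyte filament gene, had 0.22 (interval -0.68 to 1.12), or 0.44 without the chip 2 arrays. Endothelial and mural genes had -0.06. Microglial genes turned from -0.07 with 21 of 29 below 0 to 0.07 with 7 below 0 without the chip 2 arrays. Cx3cr1, the microglial fractalkine receptor gene, fell on the mean response by 0.49, with responses of -0.48 and -0.51.

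The genes of GABA synthesis and transport had a median of 0.12 over 12 genes, and glutamate and GABA receptor genes 0.11 over 31. In the second list Cacng8 and Cacng2, auxiliary subunits of AMPA receptors, had 0.87 and 0.44, both above 0 on 6 of 6 chips. Potassium channel genes had 0.03 and synaptic adhesion genes -0.08, with Nlgn1, a neuroligin gene, at -0.57. FOXO and insulin pathway genes had -0.06 with 29 of 43 below 0, which includes Sgk1, Ddit4 and Depp1 of the glucocorticoid list, and Eif4ebp1, a translation repressor gene, at -0.67 on 6 of 6 chips. Hypoxia genes had -0.02, growth arrest and p53 genes -0.02, NF-kappa-B and cytokine genes 0.00, and lipid storage and oxidation genes 0.01. Pdk4, a switch from glucose to fatty acid fuel, had responses of 0.69 and 0.39, neither of which passed, and an interaction of -0.30.

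The 8 lowest and the 8 highest interactions by the moderated t were taken among the 3096 genes (22.5%) with 1 sign on at least 5 of 6 chips. Most of these genes were not called on the mean response. Responses of opposite sign, such as 0.53 and -0.31 for Clcn6, offset each other in that mean. All 16 had an adjusted p of 0.935 by limma. The lowest were Taar8b (-1.62), Arf4 (-1.04), Snx24, Klhdc9 (-0.84), Clcn6 (-0.84), Psors1c2 (-1.33), Grhl3 (-1.47) and Fxyd5 (-0.66). Taar8b is a trace amine receptor gene, Arf4 acts in vesicle traffic, Clcn6 is a chloride transporter gene of endosomes, and Grhl3 is a transcription factor gene of epithelia. Taar8b, Arf4, Clcn6, Psors1c2 and Grhl3 had group medians from 6.62 to 8.10, near the limit for testing. Klhdc9 ran from 8.93 to 9.19 (median 9.08) and from 8.90 to 9.91 (median 9.52) in saccharin drinkers, and from 9.23 to 10.03 (median 9.63) and 8.86 to 9.30 (median 9.16) in morphine drinkers. It lay higher after morphine in the first and lower in the second, with overlap in both. Further probes of Fxyd5, Clcn6 and Grhl3 gave 0.12 and -0.22, 0.75, and -0.04, so they did not bear out the value of the brightest probe.

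The highest were Ccdc85b (0.44), Slc6a11, Isg20l2 (0.39), Kctd9 (0.70), Pigf (0.47), Olfr61 (1.15), Snrpd3 (0.49) and Slc29a4 (1.12). Pigf acts in the synthesis of the glycolipid anchor of membrane proteins, Snrpd3 is a core protein gene of the spliceosome, and Slc29a4 is a monoamine transporter gene. Isg20l2, an exonuclease gene of ribosome synthesis, ran from 10.23 to 10.48 (median 10.34) and from 10.10 to 10.40 (median 10.18) in saccharin drinkers, and from 10.00 to 10.24 (median 10.10) and 10.24 to 10.49 (median 10.35) in morphine drinkers. The morphine drinkers' groups were just separate and the saccharin drinkers' groups overlapped. A dimmer probe of Ccdc85b gave -0.58. Groups without overlap occurred in 81 genes (0.589%) in saccharin drinkers and 52 (0.378%) in morphine drinkers.

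**Figure D4:**
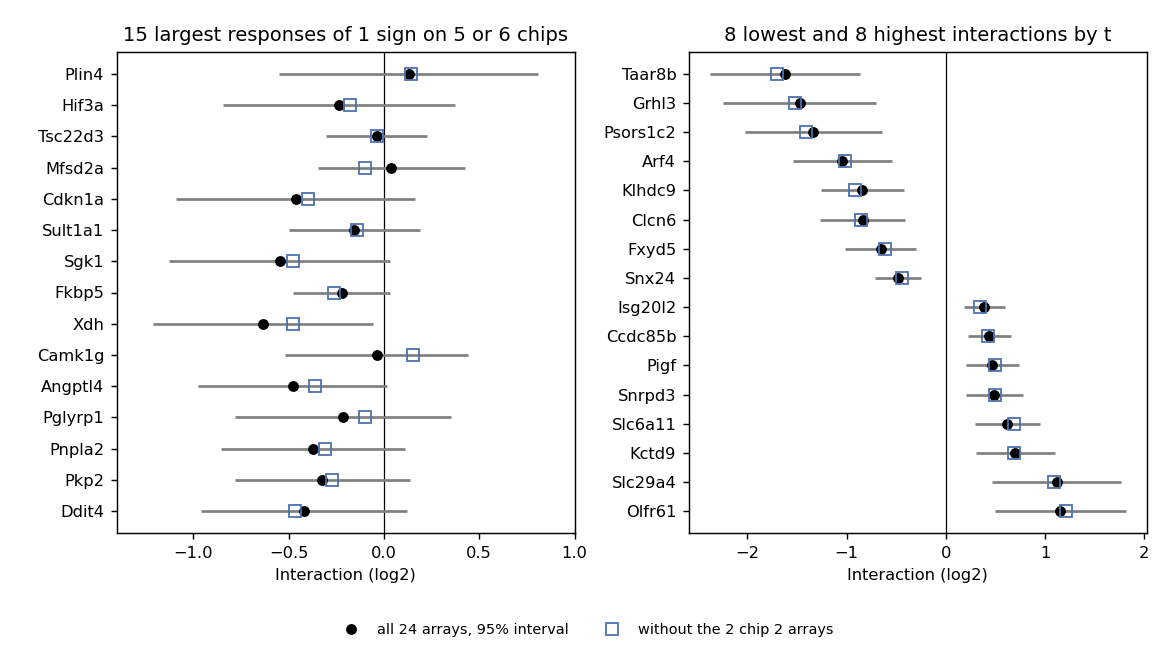
Interaction (x axis, log2) with its 95% interval for the 15 genes of largest mean response among those with 1 sign on at least 5 chips in each kind of drinker (left) and for the 8 lowest and 8 highest interactions by moderated t (right), with squares for the value without the 2 chip 2 arrays. On the left the interval of Xdh alone among the 15 lies wholly below 0, as does that of Map3k6 (-1.12 to -0.11), which the chip rule left out, and on the right all lie to one side of 0, as they were chosen to.

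Responses of opposite sign on 6 of 6 chips in each kind of drinker were found in 4 genes (0.0291%), which were named after their values were seen. Ackr2, a chemokine scavenger receptor gene, had responses of 0.55 and -0.46 and an interaction of -1.01. Clcn6 had 0.53 and -0.31, the calcium channel subunit gene Cacnb4 had 0.11 and -0.21, and the GTPase gene Drg1 had -0.13 and 0.09. None of the 4 passed the interaction test (adjusted p = 0.935 for each by limma).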

How the data were processed

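Biotin-labelled cRNA of 24 striata was hybridised to Illumina mouse beadchips, per the labels. The authors deposited probe intensity on a linear scale without normalization between arrays. The sources used here do not say whether background had been subtracted. A table of log2 values that the authors deposited as well lay within 0.0351 of quantile-normalized log2 intensities and was used as an alternative. Here the intensities were corrected by normexp (offset 50), put on the log2 scale and quantile-normalized in limma 3.58.1 under R 4.3.3. Of 45281 probes, 34885 had 1 gene symbol, 18 several and 10378 none in the platform annotation. Probes whose mean exceeded the 40th percentile (7.05) were kept and the brightest stood for its gene, and 5650 of the 13748 genes had more than 1 probe above that limit. Among 4669 unnamed probes above it, 0 passed the interaction and 260 had an unadjusted p under 0.05. Detection p-values were not used.

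lmFit and eBayes were run with group and chip as fixed terms, two-sided, with Benjamini-Hochberg adjustment over all 13748 genes at 0.05. The fit was tested on simulated data. The median SE of an interaction was 0.201 and of a single response 0.142, and the number of arrays limits the precision. The labels give each array its own number in the title, which was read here as a separate animal, and p-values measure the spread between these samples. The contrast, the 33 lists (1337 entries, 1108 tested) and the named genes were chosen with earlier results of these data known. Named genes were the 8 lowest and 8 highest interactions by t with 1 sign on at least 5 of 6 chips, the 15 largest mean responses that passed with 1 sign on at least 5 chips in each kind of drinker, up to 3 members per list with the smallest unadjusted p under 0.05, and landmark genes of opioid, activity and glucocorticoid biology. Other genes were named after their values were seen, as list examples, as genes that fell or to complete a count. Alternatives covered background, scaling, the authors' values, filter, probes per gene, chip terms, array weights, prior and arrays or chips left out. The plots were made in Python 3.11.15 with matplotlib 3.10.9.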

Additional observations from a re-analysis of the deposited data

Results flagged for a closer look

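In each group of 6 the highest or lowest array was compared with the nearest other, and 47 of 532 groups had an array further off than Dixon's 95% critical value allows. About 1 in 20 such groups is expected by chance. Most of these values belonged to the 2 chip 2 arrays of morphine drinkers.

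On replicate 32 of the morphine drinkers given saline, genes and lists of medium spiny neurons were low: Penk at 8.98, Drd1 at 10.07, Drd2 at 7.69, Rgs9 at 10.34 and Oprk1 at 6.53, with the medium spiny neuron list at 9.53 and the G protein signalling regulators at 10.68. On the same array Pkp2 was high at 10.98, Gfap at 13.70, the astrocyte list at 11.28, the interferon list at 9.96 and the NF-kappa-B list at 8.87. On replicate 31 of the morphine drinkers given morphine, the low values were Penk at 8.68, Pdyn at 11.41, Npas4 at 8.69, Drd1 at 9.83, Drd2 at 7.08 and Rgs9 at 10.44. Its low lists were opioid genes at 9.21, G protein signalling regulators at 10.62, the cyclic AMP pathway at 10.47, medium spiny neuron genes at 9.39, oligodendrocyte genes at 10.76, GABA synthesis and transport at 10.85 and monoamine genes at 8.24, and Slc29a4 was high at 10.74.

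Replicate 8 of the saccharin drinkers given saline, on chip 6, was low for Penk at 10.66, Pdyn at 12.96, the microglia list at 9.91 and ribosomal proteins at 13.54, and high for Plk3 at 10.66 and Lamp5 at 13.75. Replicate 41 of the morphine drinkers given saline, also on chip 6, was low for Pigf at 9.91 and Tsc22d3 at 11.95 and high for Cox6a2 at 11.10 and Sox10 at 12.81. Among the other morphine drinkers, Clcn6 was high at 8.57 on replicate 33, Npas4 low at 8.17 on replicate 30 and the glutamate and GABA receptor list high at 10.06 on replicate 34. In saccharin drinkers given saline, Cidea was high at 9.35 and Bbc3 low at 8.18 on replicate 10, and Fos low at 10.41 on replicate 5. In saccharin drinkers given morphine, Arf4 at 6.97 and Oprl1 at 9.40 were low on replicate 9, Cox6a2 was low at 10.67 on replicate 7, Cidea high at 8.84 on replicate 4 and Kcng1 high at 8.45 on replicate 11.

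Clcn6 had a higher level after morphine on every chip in saccharin drinkers and a lower level on every chip in morphine drinkers. The difference, -0.84, was tested as the interaction and did not pass (adjusted p = 0.935 by limma).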

How the results depend on the processing

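Results were recomputed under 45 other settings, 30 of which left out an array or a chip. The calls on the responses had 44, since the fit of within-chip differences of differences gives no response, as had genes too dim for the 60th percentile filter. By limma the interaction called 0 genes in all 45, with 452 to 969 at an unadjusted p under 0.05. None of the 100 named interactions passed in any, and 84 of 100 kept 1 sign in all. Of the 33 list medians 12 did. Scaling to a common median lowered the calls on the mean response to 22, in saccharin drinkers to 10 and in morphine drinkers to 5, and the risers with a smaller response to 29 of 71. Without a chip term the mean response called 57 and saccharin drinkers 28. With chip position added saccharin drinkers had 30. Array weights gave 169 on the mean response and 63 in morphine drinkers, and a trended and robust prior 18 in morphine drinkers. The causes of these changes were not tested. Leaving out 1 array or 1 chip gave 46 to 104 calls on the mean response (50 without chip 1, 56 without chip 6 and 46 without chip 5), 12 to 51 in saccharin drinkers and 5 to 13 in morphine drinkers (5 without chip 1). The saccharin count was 16 without chip 1, 27 without chip 3, 15 without chip 4, 12 without chip 5, 15 without chip 6, and 23 to 31 without any 1 of 7 arrays of saccharin drinkers. The risers' median then ran from -0.17 to -0.08, with 48 to 58 of 71 smaller. The interaction turned to 0.13 for Tsc22d3 under the common median and to -0.069 for Ccdc85b with the mean of all probes. Over the settings that left out arrays or chips it ran from -0.30 (without chip 1) to 0.28 for Npas4, from -0.098 (without chip 1) to 0.31 for Per1 and from -0.17 to 0.28 (without chip 2) for Camk1g. The mean responses of Ddit4, Pglyrp1 and Pkp2 lost their call in 1 or 2 settings. The limits are those of 6 arrays a group, with a median half-width of 0.42 for an interaction. Leaving out the 2 chip 2 arrays and normalizing the remaining 22 anew, a setting chosen after seeing the data, also called 0. Arrays were matched by chip. No analysis was paired by animal, because the groups share no numbers in the titles.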
